A study of Drosophila melanogaster with 16 samples.

Results

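Genes of the JAK/STAT pathway were followed in 4 kinds of malignant tumour of the Drosophila eye-antennal imaginal disc, the larval epithelial sac that forms the adult eye and antenna. The genes were taken from a list of FlyBase identifiers: os/upd1 (FBgn0004956), upd2 (FBgn0030904), upd3 (FBgn0053542), dome (FBgn0043903), hop (FBgn0004864), Stat92E (FBgn0016917), Socs36E (FBgn0041184) and et (FBgn0031055). Of these 8 identifiers, 5 have a row among the 11196 features of the table analysed here, namely os/upd1, upd2, et, Stat92E and Socs36E. No row under the identifiers of upd3, dome and hop was found, and these genes are not analysed here.

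Tumours were grown from clones of mutant cells and carried an activated Ras with loss of scrib (RasV12scrib-), of baz (RasV12baz-) or of cdc42 (RasV12cdc42-), or a gain-of-function Raf with loss of scrib (RafGOFscrib-, spelled RafGOFscirb- in the array titles). They are called RasV12 scrib, RasV12 baz, RasV12 cdc42 and RafGOF scrib below. Tumours were dissected at day 10 and the wild-type discs that served as reference at day 5 to 6, with all flies raised at 25 °C, so that a tumour's effect and that of the larva's age cannot be told apart against wild-type. Each RNA came from about 30 to 40 pooled discs, and the labels name neither the drivers of the transgenes nor a separation of mutant from other cells. In such bulk RNA, more cells of a type and more RNA per cell cannot be told apart. Each genotype had 4 arrays, on which tumour RNA was set against wild-type RNA in a pair of dyes.

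JAK/STAT signalling in the fly starts with the Unpaired cytokines, secreted ligands encoded by os/upd1, upd2 and upd3, which bind the receptor Domeless, the product of dome. The receptor activates the JAK kinase Hopscotch, encoded by hop, which phosphorylates the transcription factor Stat92E. Stat92E then enters the nucleus and turns on targets, among them Socs36E, whose product feeds back to dampen the pathway. The receptor-like protein Eye transformer, encoded by et and also called Latran, acts against Domeless. In imaginal discs the pathway is known for driving growth, and its ligands are known to be induced in wounded and neoplastic disc tissue. In the RefSeq gene order of the Release 6 assembly, upd3 and upd1 are direct neighbours with upd2 close by, and et is the direct neighbour of dome.

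All values are log2 ratios, and a positive value is read as higher in the tumour. That direction is likely, from the order of the channels in the labels, but it is not stated, and with the opposite direction every higher below would be lower at the same size. RafGOF scrib replicates 1 and 2 held identical values for 95.1% of the features and were averaged into 1 replicate, which left n = 3 for RafGOF scrib and n = 4 for the other genotypes. The arrays differed in scale. Their medians ran from -0.12 to 0.48, and the SD over all features ran from 0.43 in RafGOF scrib replicate 4 and 0.44 in RasV12 baz replicate 3 to 0.79 in RasV12 scrib replicate 2. In RasV12 scrib and RasV12 cdc42 the replicates formed the sets 1-2 and 3-4, with correlations over all features of 0.77 to 0.81 within a set and 0.20 to 0.51 across sets. In RafGOF scrib the correlation was 0.59 within a set and 0.38 to 0.46 across, and in RasV12 baz the sets did not separate. The tests treat the arrays as independent, and with the sets as random blocks the share of features called against wild-type was 10.1% in RasV12 scrib, 1.56% in RasV12 baz and 2.40% in RasV12 cdc42. In addition, 2 replicates correlated more with arrays of another genotype than with their own. RasV12 baz replicate 4 reached 0.71 with a RasV12 cdc42 array and 0.28 to 0.44 with RasV12 baz, and the averaged RafGOF scrib replicate reached 0.64 with a RasV12 scrib array and 0.38 to 0.46 with RafGOF scrib. With RasV12 scrib and RasV12 cdc42, both correlated more with arrays of their own set. RasV12 baz replicate 4 gave 0.54 to 0.71 with replicates 3 and 4 of these genotypes and 0.23 to 0.39 with replicates 1 and 2. The averaged RafGOF scrib replicate gave 0.49 to 0.64 with replicates 1 and 2 and 0.41 to 0.46 with replicates 3 and 4. With each other they gave 0.44, across sets. Members that rest on these arrays are also given without both. Adjusted p-values are from limma with Benjamini-Hochberg adjustment over all 11196 features, a gene is called at an adjusted p under 0.05, and errors are SEs of the fit unless stated. The labels call the arrays biological replicates without naming separate crosses, and the p-values measure the spread between these arrays.

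Against wild-type discs, the ligands and the target Socs36E were called higher in the 3 genotypes with activated Ras, and Stat92E in both genotypes with scrib loss. A call in 1 genotype and not in another does not show a difference between them, and no member was called between any pair of genotypes. The 95% intervals of upd2 and Socs36E in RafGOF scrib and of Stat92E in RasV12 cdc42 also lay above 0. In RasV12 scrib, 4 of the 5 genes rose, where 22.1% of all features were called, 10.4% higher and 11.7% lower. In RasV12 baz, os/upd1, upd2 and Socs36E rose, where 4.75% of all features were called, 3.65% higher and 1.10% lower. In RasV12 cdc42 the same 3 genes rose, where 8.14% were called, 5.72% higher and 2.42% lower. In RafGOF scrib Stat92E was the 1 gene of the 5 called higher, where 4.74% of all features were called, 3.65% higher and 1.09% lower. No member was called lower in any genotype, and none was called higher in all 4, as 0.750% of all features were. The median log2 change of the 5 genes was 1.23 in RasV12 scrib, 1.52 in RasV12 baz, 1.58 in RasV12 cdc42 and 0.86 in RafGOF scrib, beside medians over all features of 0.05, 0.15, 0.14 and 0.24. These 4 comparisons share wild-type RNA as the reference, so a gene's call in one is not independent of its call in another.

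**Figure D1:**
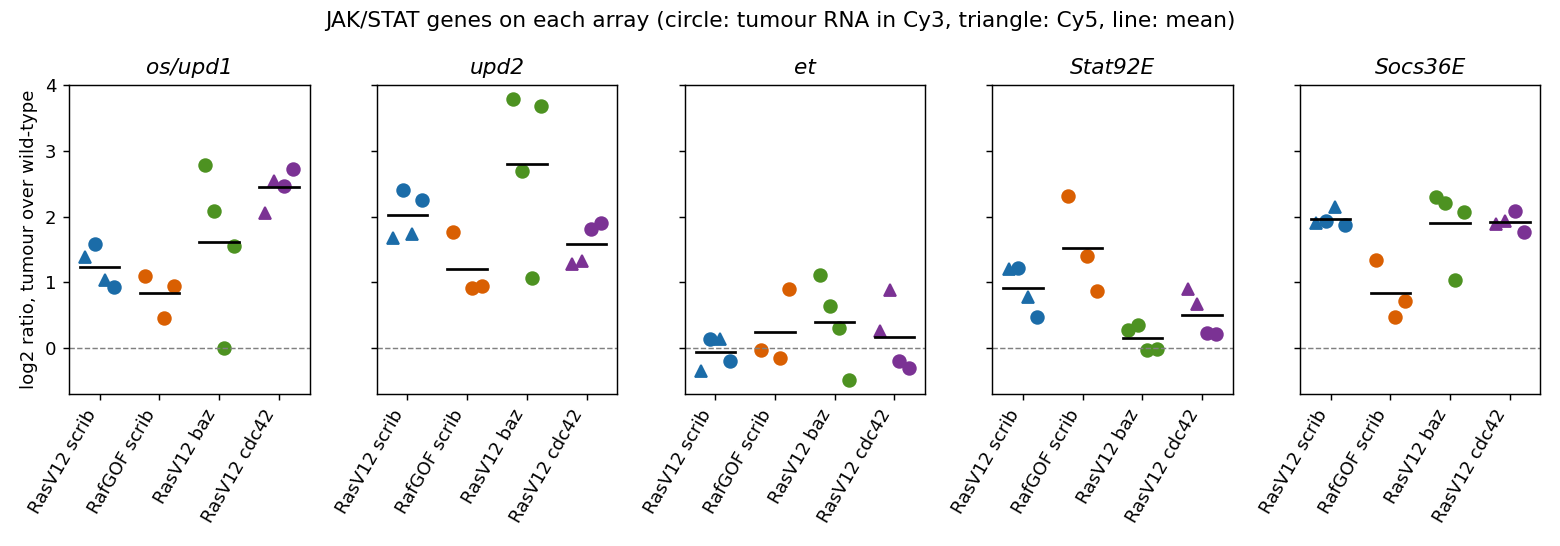
Log2 ratio of tumour over wild-type (y axis) for the 5 measured JAK/STAT genes (panels) on each array, by genotype (x axis); circles are arrays with tumour RNA in Cy3, triangles those in Cy5, and lines are means over n = 4 (n = 3 in RafGOF scrib). RasV12 baz replicate 3 is the lowest of its genotype for os/upd1 (0), upd2 (1.06) and Socs36E (1.03), and Stat92E is highest in RafGOF scrib.

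The ligand os/upd1, the founding member of the Unpaired family, read 2.05, 2.53, 2.47 and 2.73 on the log2 scale in RasV12 cdc42 replicates 1 to 4. In RasV12 scrib it read 1.39, 1.58, 1.03 and 0.93, and in RafGOF scrib 1.10 for the averaged replicates 1 and 2, then 0.45 and 0.95. The 4 RasV12 cdc42 arrays thus lay above every array of both scrib genotypes. In RasV12 baz it read 2.78, 2.08, 0 and 1.56, the widest range of any genotype for this gene, and these arrays overlapped all other genotypes. Above 0 on 14 of the 15 replicates, os/upd1 shared this with the 9.71% of features above 0 on at least 14. The value of replicate 3 is exactly 0, as are between 16 and 61 values on every array, and no source used here says whether it is an equal signal or a filled-in value.

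The fitted change of os/upd1 was highest in RasV12 cdc42, at 2.44 ± 0.29 (5.44-fold, adjusted p = 1.17e-05). It rose by 1.52 ± 0.35 in RasV12 baz (2.86-fold, adjusted p = 0.0149) and by 1.23 ± 0.29 in RasV12 scrib (2.35-fold, adjusted p = 0.00376). Without the arrays that resembled another genotype it was 1.53 in RasV12 baz (adjusted p = 0.0392) and 0.61 in RafGOF scrib (adjusted p = 0.784). In RafGOF scrib the change was 0.74 ± 0.39 with a 95% interval from -0.07 to 1.56 (adjusted p = 0.319). The RasV12 baz call was lost without replicate 1 (adjusted p = 0.102) or without replicate 2 (adjusted p = 0.0943), and with replicates 1-2 and 3-4 as random blocks (adjusted p = 0.103). The RasV12 scrib call was lost with those blocks (adjusted p = 0.0600) and when the dye-swapped arrays were left out (adjusted p = 0.0838).

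The ligand upd2, a secreted cytokine also known as a signal from the fat body, read 3.79, 2.69, 1.06 and 3.68 in RasV12 baz replicates 1 to 4. It read 1.68, 2.40, 1.74 and 2.26 in RasV12 scrib. In RasV12 cdc42 it read 1.28, 1.33, 1.81 and 1.90, and in RafGOF scrib 1.76, 0.91 and 0.95. Every array of every genotype was thus above 0, as were 4.97% of all features, and 3 of the 4 RasV12 baz arrays exceeded all arrays of the other genotypes.

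The fitted change of upd2 was 2.51 ± 0.36 in RasV12 baz (5.70-fold, adjusted p = 0.000202), where it ranked 30th from the highest of all 11196 features. It rose by 2.02 ± 0.30 in RasV12 scrib (4.05-fold, adjusted p = 5.10e-05) and by 1.58 ± 0.30 in RasV12 cdc42 (2.99-fold, adjusted p = 0.00160). Without the arrays that resembled another genotype the RasV12 baz value was 2.22 (adjusted p = 0.00239). The RasV12 cdc42 call was lost with replicates 1-2 and 3-4 as random blocks (adjusted p = 0.131). In RafGOF scrib the change was 0.91 ± 0.40, with an interval from 0.07 to 1.75 (adjusted p = 0.227). Without the dye term that value was 1.21 and passed the threshold (adjusted p = 0.0365). Without the arrays that resembled another genotype it was 0.63 (adjusted p = 0.726).

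**Figure D2:**
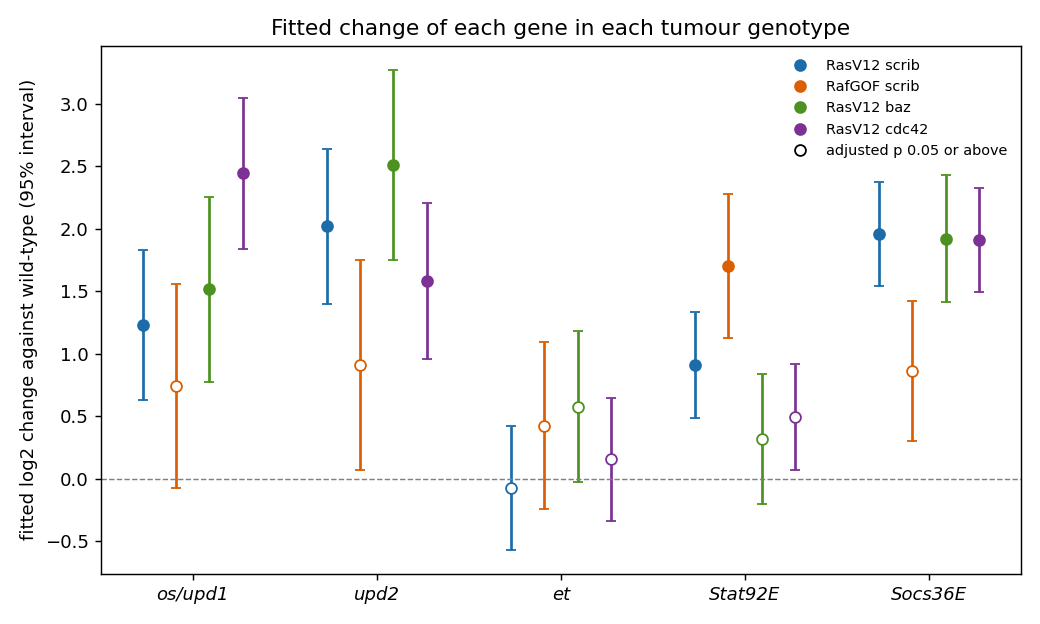
Fitted log2 change against wild-type (y axis) of the 5 genes (x axis) in each tumour genotype (colours), with 95% intervals of the limma fit; filled points passed an adjusted p of 0.05 and open points did not. Socs36E lies between 1.91 and 1.96 in the 3 genotypes with activated Ras and at 0.86 in RafGOF scrib.

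The order of the genotypes was not the same for both measured ligands. On each array the log2 ratio of upd2 was subtracted from that of os/upd1. This cancels a shift of the whole array but not a difference in its spread, on which the size of the difference still depends. This comparison was chosen after the values were seen. In RasV12 cdc42 the difference was 0.77, 1.21, 0.65 and 0.82, so os/upd1 exceeded upd2 on each array. In RasV12 baz it was -1.01, -0.61, -1.06 and -2.12 and in RasV12 scrib -0.29, -0.82, -0.71 and -1.33, so upd2 exceeded os/upd1 on each array. RafGOF scrib had differences of -0.66, -0.46 and 0.00.

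The mean difference was 0.86 ± 0.24 (SD, n = 4) in RasV12 cdc42 and -1.20 ± 0.65 (SD, n = 4) in RasV12 baz. These genotypes did not overlap and differed by 2.06 (4.18-fold in the ratio of the ligands' changes; exact two-sided permutation test, p = 0.0286, which is the smallest this design allows). RasV12 cdc42 differed from RasV12 scrib, with a mean of -0.79 ± 0.43 (SD, n = 4), by 1.65 (3.14-fold, exact permutation p = 0.0286). Over the 6 pairs of genotypes the Benjamini-Hochberg adjusted p was 0.0857 in both cases (exact permutation test), so neither passed a threshold of 0.05. The adjustment covers the 6 pairs, not the choice of this comparison after the values were seen. How often other pairs of genes separate in this way was not counted. Against RafGOF scrib, with a mean of -0.37 ± 0.34 (SD, n = 3), the difference was 1.24 with no overlap (exact permutation p = 0.0571, the smallest possible, adjusted p = 0.114). The other 3 pairs overlapped, with adjusted p from 0.171 to 0.343. With the means of the sets 1-2 and 3-4 as units, the pairs with RasV12 cdc42 kept no overlap, but 2 against 2 cannot give an exact permutation p below 0.333. Without RasV12 baz replicate 3, where os/upd1 is listed at 0, the difference between RasV12 cdc42 and RasV12 baz was 2.11 (exact permutation p = 0.0571, adjusted p = 0.114). Without the arrays that resembled another genotype it was 1.76 (exact permutation p = 0.0571, adjusted p = 0.171). On arrays with tumour RNA in Cy3 alone it was 1.94 (exact permutation p = 0.133, adjusted p = 0.3).

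**Figure D3:**
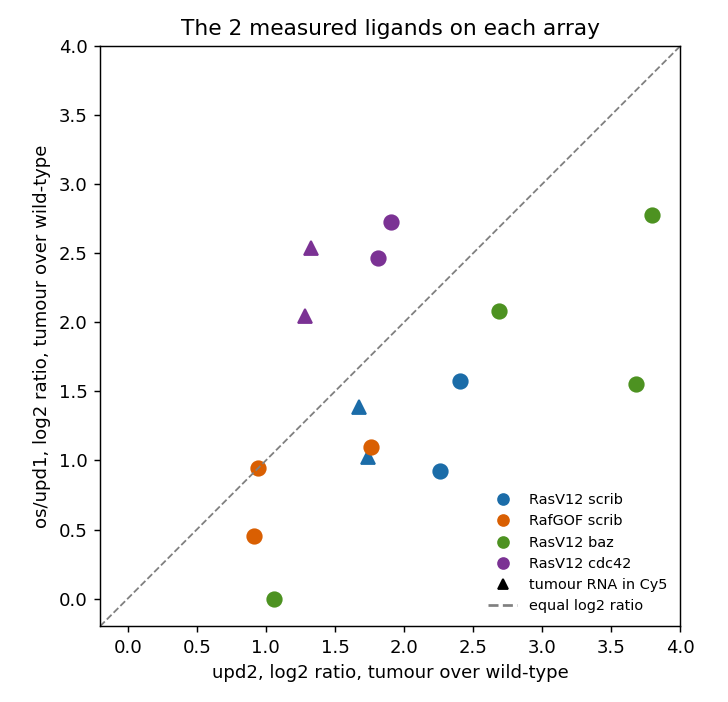
Log2 ratio of os/upd1 (y axis) against that of upd2 (x axis) on each of the 15 replicates, coloured by genotype, with triangles for tumour RNA in Cy5 and a dashed line where both are equal. The 4 RasV12 cdc42 arrays lie above the line, and all RasV12 scrib and RasV12 baz arrays lie below it.

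The gene et, whose product opposes the receptor Domeless, was not called in any genotype. It read -0.35, 0.13, 0.13 and -0.20 in RasV12 scrib and -0.03, -0.16 and 0.89 in RafGOF scrib. In RasV12 baz it read 1.10, 0.64, 0.29 and -0.49, and in RasV12 cdc42 0.25, 0.88, -0.20 and -0.31. Every genotype held arrays on both sides of 0, so the groups overlapped throughout.

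The fitted changes of et were -0.07 in RasV12 scrib (95% interval -0.57 to 0.42) and 0.16 in RasV12 cdc42 (-0.34 to 0.65), with adjusted p of 0.876 and 0.758. They were 0.42 in RafGOF scrib (-0.24 to 1.09) and 0.58 in RasV12 baz (-0.03 to 1.18), with adjusted p of 0.495 and 0.325. A rise of more than 1.18 on the log2 scale lay outside the interval of each genotype. Array quality weights called et higher in RafGOF scrib (0.92, adjusted p = 0.000761) and RasV12 baz (0.82, adjusted p = 0.00409), where they called 36.6% and 39.2% of all features, and the other alternatives did not call it against wild-type. In RasV12 cdc42 the arrays with tumour RNA in Cy5 were replicates 1 and 2, which were also the higher ones, so dye and replicate pair coincide there.

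Stat92E, the transcription factor of the pathway, read 2.31 in the averaged replicates 1 and 2 of RafGOF scrib, then 1.39 and 0.87. In RasV12 scrib it read 1.21, 1.22, 0.77 and 0.46. It read 0.28, 0.34, -0.04 and -0.02 in RasV12 baz and 0.90, 0.66, 0.22 and 0.20 in RasV12 cdc42. Both scrib genotypes thus lay above RasV12 baz on every array, while RasV12 cdc42 overlapped all 3 other genotypes. No overlap in this direction was found for 5.70% of all features between RafGOF scrib and RasV12 baz, and for 1.91% between RasV12 scrib and RasV12 baz.

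The fitted change of Stat92E was 1.70 ± 0.27 in RafGOF scrib (3.25-fold, adjusted p = 0.000881), rank 81 from the highest of all features, and this call was kept under each of the 26 alternative settings. It rose by 0.91 ± 0.20 in RasV12 scrib (1.88-fold, adjusted p = 0.00248), and on the Cy3 arrays alone that call was lost (adjusted p = 0.0900). The changes were 0.50 ± 0.20 in RasV12 cdc42 (interval 0.07 to 0.92, adjusted p = 0.162) and 0.32 ± 0.25 in RasV12 baz (interval -0.20 to 0.84, adjusted p = 0.557). In RasV12 cdc42 Stat92E was also called with quantile normalization (0.55, adjusted p = 0.0312, with 15.7% of all features called) and with array quality weights (0.56, adjusted p = 6.40e-07, with 51.7%), and with those weights in RasV12 baz too (0.59, adjusted p = 0.0116, with 39.2%). Without the arrays that resembled another genotype the RafGOF scrib value was 1.31 (adjusted p = 0.0153). Replicates 1 and 2 read higher than replicates 3 and 4 in every genotype, whichever dye they carried, and the fitted dye effect on Stat92E was -0.36 (unadjusted p = 0.225, adjusted p = 0.653, limma). What sets the replicates 1-2 apart was not tested.

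Socs36E, the feedback inhibitor and standard readout of pathway activity in the fly, read 1.90, 1.94, 2.14 and 1.87 in RasV12 scrib. In RasV12 cdc42 it read 1.88, 1.93, 2.08 and 1.76, and in RasV12 baz 2.29, 2.20, 1.03 and 2.06. In RafGOF scrib it read 1.33, 0.47 and 0.71. All RafGOF scrib arrays lay below all RasV12 scrib and RasV12 cdc42 arrays, and they overlapped RasV12 baz only through RasV12 baz replicate 3. The arrays of RasV12 scrib and RasV12 cdc42 were tight, with SDs of 0.12 and 0.13 (n = 4 each) beside median SDs over all features of 0.41 and 0.31.

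The fitted change of Socs36E was 1.96 ± 0.20 in RasV12 scrib (3.89-fold, adjusted p = 5.01e-07), 1.92 ± 0.24 in RasV12 baz (3.79-fold, adjusted p = 4.40e-05) and 1.91 ± 0.20 in RasV12 cdc42 (3.76-fold, adjusted p = 2.42e-06). These 3 calls were kept under each of the 26 alternative settings. In RafGOF scrib the change was 0.86 ± 0.27 (interval 0.30 to 1.42) and missed the threshold (adjusted p = 0.0741). It passed in 6 of the 26 settings, among them the fit without the dye term (adjusted p = 0.0237) and the fit without RasV12 baz replicate 3 (adjusted p = 0.0338). Without the arrays that resembled another genotype the RafGOF scrib value was 0.61 (adjusted p = 0.487).

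RasV12 baz replicate 3 gave the lowest value of its genotype for os/upd1, upd2 and Socs36E. The 99th percentile of all features on that array was 1.08, the lowest of the 15 replicates, against 2.19 to 2.49 on the other RasV12 baz arrays. Within the array, Socs36E stood above 98.91% of the features, within its range of 98.7% to 98.9% on the other RasV12 baz arrays, and upd2 above 98.96%, below its range of 99.4% to 99.8% there. The value of os/upd1 stood at percentile 47.0 there and between percentiles 97.4 and 99.3 on the others. In RafGOF scrib, Socs36E stood between percentiles 81.0 and 92.4 of its arrays, and between 98.0 and 99.4 on the arrays of the other genotypes. How many of all features separate in this way on the scale of ranks was not counted. On log2 ratios RafGOF scrib and RasV12 baz overlapped for Socs36E.

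**Figure D4:**
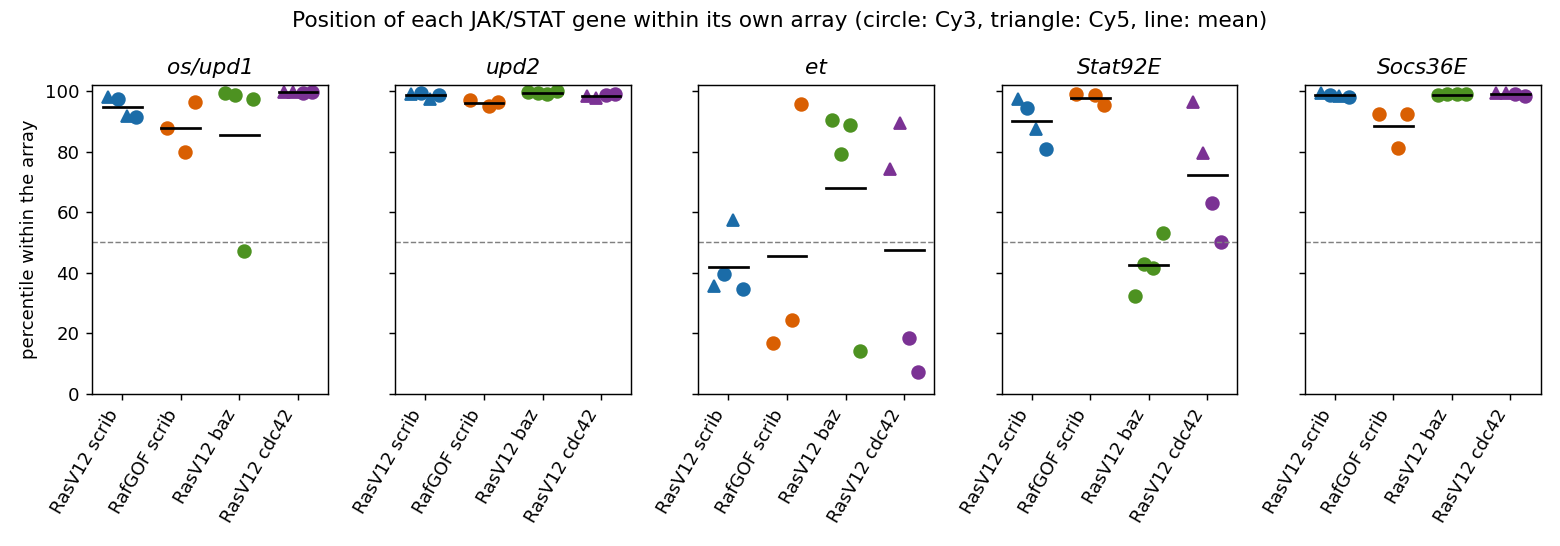
Percentile of each gene's log2 ratio among all 11196 features of the same array (y axis), by genotype (x axis), with circles for tumour RNA in Cy3, triangles for Cy5 and lines at the means. On the scale of ranks RasV12 baz replicate 3 lies within its group for Socs36E (98.91), slightly below it for upd2 (98.96) and far below it for os/upd1 (47.0).

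Whether the genes differed among the 4 genotypes was tested with an F-test of the same fit. Stat92E was the 1 member called (adjusted p = 0.0417), against 3.97% of all features. The call was lost without any 1 of 12 of the 15 replicates, all except RasV12 scrib replicates 2 and 3 and RafGOF scrib replicate 4 (adjusted p up to 0.163), and with replicates 1-2 and 3-4 as random blocks (adjusted p = 0.277). Socs36E (adjusted p = 0.117), os/upd1 (adjusted p = 0.127), upd2 (adjusted p = 0.169) and et (adjusted p = 0.801) were not called. Without RasV12 baz replicate 3 the F-test called upd2 (adjusted p = 0.00166), os/upd1 (adjusted p = 0.00701) and Socs36E (adjusted p = 0.0207) and no longer Stat92E (adjusted p = 0.0788). Of the 15 fits without 1 replicate, only this one called upd2, os/upd1 or Socs36E. It takes out the lowest RasV12 baz value of each of these genes.

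None of the 30 tests of the 5 genes in the 6 pairs of genotypes passed the threshold (limma, adjusted over all features). Of these 30 tests, 10 had an unadjusted p under 0.05, a larger share than the 10.7% among the tests of all features in these pairs. They were concentrated in the pairs with RafGOF scrib, with 3 each against RasV12 scrib (13.9% of all features), RasV12 baz (8.63%) and RasV12 cdc42 (6.66%). RasV12 cdc42 against RasV12 scrib had 1 (13.3%). RasV12 baz had 0 against RasV12 scrib (16.1%) and 0 against RasV12 cdc42 (5.64%). The 30 tests share arrays and are not independent. Of all features, 1.18% were called between RafGOF scrib and RasV12 scrib, 3.02% between RasV12 baz and RasV12 scrib and 3.51% between RasV12 cdc42 and RasV12 scrib. Between RasV12 baz and RafGOF scrib 0.464% were called, between RasV12 cdc42 and RafGOF scrib 0.598% and between RasV12 cdc42 and RasV12 baz 0.0357%.

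The order of the genotypes by fitted change was RasV12 cdc42, RasV12 baz, RasV12 scrib and RafGOF scrib for os/upd1. The neighbours in this order differed by 0.93 ± 0.45, 0.29 ± 0.45 and 0.49 ± 0.48, and the 95% interval of each difference included 0. RasV12 cdc42 exceeded RasV12 scrib by 1.21 ± 0.41 (2.32-fold, adjusted p = 0.130) with no overlap, as was found for 6.65% of all features in this direction. It exceeded RafGOF scrib by 1.70 ± 0.48 (3.25-fold, adjusted p = 0.180) with no overlap, as for 2.26% of features. With exact zeros set as missing, among them the 0 in RasV12 baz replicate 3, these differences kept their size. Their SEs were then 0.28 and 0.34, and they passed the threshold (adjusted p = 0.0195 and 0.0208).

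For upd2 the order was RasV12 baz, RasV12 scrib, RasV12 cdc42 and RafGOF scrib, and the neighbours differed by 0.49 ± 0.47, 0.44 ± 0.42 and 0.67 ± 0.50, and each interval included 0. RasV12 baz exceeded RafGOF scrib by 1.60 ± 0.45 (adjusted p = 0.148), and without RasV12 baz replicate 3 by 2.18 (adjusted p = 0.000851). No other fit without a single replicate called this difference in upd2. For Stat92E the order was RafGOF scrib, RasV12 scrib, RasV12 cdc42 and RasV12 baz. RafGOF scrib exceeded RasV12 scrib by 0.79 ± 0.34 (adjusted p = 0.299) and RasV12 baz by 1.38 ± 0.31 (2.61-fold, adjusted p = 0.0539). This difference between RafGOF scrib and RasV12 baz was called in 9 of the 26 alternative settings, among them the replicate block (adjusted p = 0.0119). It was not called in the others, with adjusted p up to 0.432 (limma). With replicates 1-2 and 3-4 as random blocks no member was called in this pair.

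For Socs36E the 3 genotypes with activated Ras lay within 0.05 of one another, with 95% intervals of the pairwise differences that ran from -0.69 to 0.64 over the 3 pairs, so differences beyond 0.69 lay outside them. RafGOF scrib was lower than RasV12 scrib by 1.10 ± 0.33 (2.14-fold, adjusted p = 0.116), with no overlap, as for 1.19% of all features. RasV12 cdc42 exceeded RafGOF scrib by 1.05 ± 0.33 (adjusted p = 0.279), with no overlap, as for 2.26% of features, and RasV12 baz exceeded it by 1.06 ± 0.30 (adjusted p = 0.148). By fitted change, RafGOF scrib thus had the highest Stat92E and the lowest Socs36E, and RasV12 baz the lowest Stat92E with Socs36E near that of the other activated-Ras genotypes.

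The features whose pattern over the 15 replicates was most like that of each called gene were found by Pearson's r, which describes these arrays and rests on shared scale as well as on the gene. For Socs36E they were FBgn0041789 (r = 0.92) and FBgn0033875 (r = 0.90), for Stat92E FBgn0016059 (r = 0.93) and FBgn0039844 (r = 0.92). For upd2 they were FBgn0031630 (r = 0.92) and FBgn0022359 (r = 0.90), and for os/upd1 FBgn0037625 (r = 0.86) and FBgn0031405 (r = 0.85). None of them has a name in the tables used here.

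Of 41 other pathway genes listed by symbol, 2 could be matched to a feature through the RefSeq names, lwr and the gene of heterochromatin protein HP1. The SUMO-conjugating enzyme gene lwr, whose product is known to modify Stat92E in the fly, had fitted changes of -0.70 in RasV12 scrib (adjusted p = 0.0328), 0.13 in RafGOF scrib (adjusted p = 0.842), -0.63 in RasV12 baz (adjusted p = 0.251) and -0.70 in RasV12 cdc42 (adjusted p = 0.0711). It fell in RasV12 scrib and was not called elsewhere. The HP1 gene lay between -0.77 and -0.10 and was not called in any genotype (lowest adjusted p = 0.146).

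Of 55 markers of the eye-antennal disc and of other larval cell types, 2 were matched, Lsp2 of the 7 fat body markers and LanA of the 11 haemocyte markers, and none of the 15 disc markers. The tissue label could therefore not be checked. Lsp2, a larval serum protein of the fat body, was at -3.92 in RasV12 scrib (adjusted p = 0.000143), -1.69 in RasV12 cdc42, -0.73 in RafGOF scrib and 0.07 in RasV12 baz. LanA, a laminin subunit, lay between -0.20 and 0.13. The part of other cells in the values of the ligands, Stat92E and Socs36E was not tested.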

How the data were processed

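The members and gene lists were chosen with earlier results of these data known. RNA was extracted in TRIzol, per the labels' protocols, amplified and labelled with random hexamers, with tumour RNA in Cy3, and in Cy5 on the 4 dye-swapped arrays (RasV12 scrib replicates 1 and 3, RasV12 cdc42 replicates 1 and 2). The authors deposited log2 ratios, 1 per feature and array. Scanning, background correction, normalization and filters are not given in the sources used here. As for the base of the logarithm, 36.7% of 409 values repeated at least 3 times on an array lay within 1e-05 of the log2 of a quotient of whole numbers, both at most 9, and 0% of a natural or decimal one, from which log2 was inferred. All pairs of replicates correlated above 0 (lowest r = 0.07), so no sign was changed.

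Genotype means and a dye effect were estimated for all features from 15 replicates by linear models (R 4.3.3, limma 3.58.1, empirical Bayes moderation), and its code was tested on simulated data. A genotype's mean against 0 is its comparison with wild-type, contrasts and an F-test compare genotypes, and p-values are two-sided. No array of RasV12 baz or RafGOF scrib was swapped, and their dye correction comes from the other genotypes, so fitted values differ from replicate means. In RasV12 cdc42 the swapped arrays were replicates 1 and 2, so the dye effect there cannot be told apart from a difference between the sets. The labels do not say whether 1 wild-type RNA served all arrays, in which case the tests lack the spread among wild-type discs. Exact permutation tests and figures used Python 3.11.15, scipy 1.17.1 and matplotlib 3.10.9. All 5 members with a row are named, with the 2 features most correlated with each called member. Gene names were given with the identifiers. RefSeq names, used for the other lists, matched 71 features uniquely.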

Additional observations from a re-analysis of the deposited data

Results flagged for a closer look

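Stat92E is listed because it differed among the 4 genotypes in the F-test (F = 7.55, adjusted p = 0.0417, limma). The ratio of the ligands is listed because os/upd1 minus upd2 was above 0 on all 4 RasV12 cdc42 arrays and below 0 on all 4 arrays of RasV12 scrib (difference of means 1.65 on the log2 scale) and of RasV12 baz (2.06). The exact permutation p was 0.0286 before and 0.0857 after adjustment over the 6 pairs, in a test that takes the arrays of a genotype as independent. The comparison was chosen after the values were seen, and these p-values do not account for that choice. No array stood apart from the other 3 of its genotype beyond Dixon's 95% limit of 0.829 in the 18 groups of 4 tested. The closest was Socs36E in RasV12 baz replicate 3, whose gap to the next array was 0.819 of the range.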

How the results depend on the processing

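The fit was repeated under 26 alternative settings, 15 of which left out 1 replicate each. Exact zeros as missing, leaving out the arrays that resembled another genotype (RasV12 baz replicate 4 and the averaged RafGOF scrib replicate) and all alternatives for the ligand difference were chosen after seeing the data. No called change against wild-type changed sign, and the cause of a changed call was not tested. Percentages are the share of all features called under the same setting. Leaving out single replicates gave 4 members in RasV12 scrib against wild-type (16.5% to 23.0%), 3 in RasV12 cdc42 (4.16% to 9.84%), 2 to 3 in RasV12 baz (2.15% to 5.57%) and 1 to 2 in RafGOF scrib (1.41% to 5.79%). Among the genotypes it gave 0 to 3 (2.65% to 5.98%). Between pairs it gave 0 to 1 for RasV12 cdc42 against RasV12 scrib (2.03% to 4.03%) and RafGOF scrib (0.107% to 0.697%), 0 to 2 for RasV12 baz against RafGOF scrib (0.179% to 0.875%), and 0 for the other 3 pairs.

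Without the dye term 3 members were called in RafGOF scrib (9.07%) and 1 in RafGOF scrib against RasV12 scrib (3.27%). With centred arrays 2 were called among the genotypes (4.38%), 2 in RasV12 baz against RafGOF scrib (0.840%) and 1 in RafGOF scrib against RasV12 scrib (1.26%). Quantile normalization called 4 among the genotypes (5.03%), 4 in RasV12 cdc42 (15.7%), 3 in RafGOF scrib (9.63%), 3 each in RasV12 baz (3.14%) and RasV12 cdc42 (1.97%) against RafGOF scrib, and 1 in RasV12 cdc42 against RasV12 scrib (2.41%). Array quality weights, whose estimation stopped before full convergence, called 5 in RafGOF scrib (36.6%), RasV12 baz (39.2%), among the genotypes (30.1%) and in RasV12 cdc42 against RafGOF scrib (20.6%), 3 in RasV12 baz against RafGOF scrib (6.32%), and 2 each in RafGOF scrib against RasV12 scrib (9.32%) and RasV12 cdc42 against RasV12 baz (22.8%). With the RafGOF scrib duplicates kept separate, 2 were called in RafGOF scrib (13.8%) and 1 each in RasV12 baz (1.88%) and RasV12 cdc42 (112 features) against it. Arrays with tumour RNA in Cy3 alone gave 2 in RasV12 scrib (10.8%), 2 in RafGOF scrib (9.40%) and 0 among the genotypes (1.72%). Among the genotypes, random blocks of replicates 1-2 and 3-4 gave 0 (0.572%), and so did leaving out the arrays that resembled another genotype (6.67%). Exact zeros as missing gave 2 among the genotypes (4.07%) and 1 each for RasV12 cdc42 against RasV12 scrib (3.61%) and RafGOF scrib (0.652%). Robust moderation gave 1 in RasV12 baz against RafGOF scrib (0.518%).

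Arrays of the same number were not taken as pairs across genotypes in the main fit. Deviations of same-numbered arrays from their genotype means correlated above 0.1 in 10 of 18 pairs. Their mean r was 0.10, against -0.03 for other pairs, and 6 of 14 arrays correlated best with their own number. Some spread shared by replicate number across genotypes is thus possible, and the replicate block allows for it. With the replicate block 1 member, Stat92E, was called in RasV12 baz against RafGOF scrib (0.429%), and no other count of member calls moved.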

Other observations

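Over the 15 replicates Socs36E went with both measured ligands (r = 0.68 with each), and by r with Socs36E os/upd1 ranked 48 and upd2 ranked 50 among all features. The points share arrays, scale and genotype. With the mean of each genotype subtracted, r was 0.80 for os/upd1 and 0.78 for upd2, and it dropped to 0.39 and 0.35 without RasV12 baz replicate 3, so it rests largely on that array. Stat92E correlated at -0.36 with Socs36E over all 15 replicates and at 0.43 with genotype means subtracted. The pattern of et was near 0 against upd2 (r = 0.01) and Socs36E (r = 0.01).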
